A study of Mus musculus with 16 samples.

Results

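Osteosarcomas of mice without a floxed *Arid1a* allele that grew at a named bone site were compared by site, 7 of the 16 tumors in the series. They were chosen by their titles, which give the animal and the site. The axial tumors were N43 spine, N43 pelvis and N42 R pelvis (n = 3), and the appendicular tumors were N42 R femur, N42 L limb, N42 L shoulder and N215 R hind limb (n = 4). The other tumors of the series are 1 lung tumor with the same genotype and 8 tumors with floxed *Arid1a*, and they are not described here. All 7 tumors came from *OsxCreERT2+/-; p53fl/fl; Rb1fl/fl* mice, in which a tamoxifen-inducible Cre driven by the *Osterix* promoter recombines floxed *Trp53* and *Rb1* in cells of the osteoblast lineage. Cre was activated at the age of 1 month with intraperitoneal tamoxifen (400 µg/g, given as 20 mg/mL), and tumors came from mice older than 6 months. Male and female mice were used, and the sex of each animal is not given in the labels.

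The tumors came from 3 animals, and several share an animal. N42 gave 1 axial and 3 appendicular tumors, N43 gave 2 axial tumors and N215 gave 1 appendicular tumor. Site and animal could therefore be told apart only within N42, and p-values measure only the spread between these tumors, with tumors of 1 mouse treated as separate samples. The side of the body of the N42 L limb tumor is given, but not whether it was a fore or hind limb. The pelvis was grouped with the spine here, although the hip bones belong anatomically to the pelvic girdle, and the labels do not say whether a pelvic tumor began in the hip bone or the sacrum.

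The axial skeleton of the trunk forms mostly from the somites, and the bones of the limbs form from the lateral plate mesoderm. The *Hox* genes, transcription factor genes in 4 clusters, encode position along the head-to-tail axis and along the limb, and adult bone cells keep part of this code. *Tbx5* marks the developing forelimb and *Pitx1* and *Tbx4* the hind limb, while *Pax1*, *Pax9* and the *Zic* genes act in the forming vertebral column. A bone tumor taken from the animal can also hold marrow, fat, vessels and the muscle attached to the bone, and the spine and pelvis carry much red marrow. In bulk RNA, a smaller number of cells of a type and less RNA per cell cannot be told apart.

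All values below are the deposited read counts per gene, given as CPM, counts scaled to a common library size with TMM factors. Where values are listed without names, the axial order is N43 spine, N43 pelvis, N42 R pelvis, and the appendicular order is N42 R femur, N42 L limb, N42 L shoulder, N215 R hind limb. Fold changes are log2 values of axial over appendicular from edgeR's quasi-likelihood test. The value after ± is an approximate standard error, the size of the fold change over the square root of the test's F statistic. It restates that statistic and is not a separate measure of spread. The libraries held 7806160 to 16962329 counts. The 3 axial libraries were all deeper than the 4 appendicular ones, and more genes were detected in each of them, 22216 to 22647 against 21530 to 21862. An exact two-sided permutation test gave p = 0.0571 for both measures, which is the smallest p that 3 against 4 tumors allow. At the depth of the shallowest library the expected numbers of detected genes overlapped, 21131 to 21723 in the axial and 20595 to 21753 in the appendicular tumors.

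The N215 R hind limb tumor stood apart from the other 6 tumors. Its library was the shallowest, with 10.99% of counts from mitochondrial genes against 1.46% to 3.08% in the others and 8.76% from the RNase P RNA gene *Rpph1* against 0.73% to 1.74%. Bone matrix transcripts were low in it: *Col1a1*, the main collagen chain of bone, was at 3240 CPM against 12419 to 57579 CPM in the other 6 tumors, and *Bglap*, the osteocalcin gene, had no count. Y-linked transcripts were also found in this tumor alone at more than trace level, with *Ddx3y* at 103 CPM and *Uty* at 110.2 CPM, while the highest value of these genes in the tumors of N42 and N43 was 0.429 CPM. *Xist*, transcribed from the inactive X chromosome, was nevertheless at 500.4 CPM in N215, and at 1326 to 3121 CPM in the tumors of N42 and N43. Transcripts of the inactive X chromosome and of the Y chromosome were thus both present in this library, and whether it holds RNA of more than 1 animal was not tested. Counts of genes whose groups do not overlap are therefore also given without N215.

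The conditional alleles are the same in both site groups. *Trp53* was at 14.96, 20.8 and 16.8 CPM in the axial tumors and 23.0, 23.9, 22.9 and 20.7 CPM in the appendicular tumors, and the groups overlapped only through N215. *Rb1* was at 77.2, 88.8 and 61.5 CPM against 56.3, 56.8, 53.1 and 45.1 CPM, with no overlap between the groups (log2 fold change 0.52 ± 0.21, unadjusted p = 0.0352, edgeR adjusted p = 0.974). Counts per gene do not separate the deleted exons from the rest, so these levels do not measure recombination. *Arid1a*, which is not floxed in these mice, was at 201, 203 and 152 CPM and 206, 179, 189.6 and 279.9 CPM.

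The first question was whether tumors resembled each other by site or by animal. The difference between tumors was measured as the root mean square difference in log2 CPM over the 17131 genes tested. Within N42, the R pelvis tumor differed from the 3 appendicular tumors by 0.63 to 0.98, and these differed among themselves by 0.79 to 0.99. Over all tested genes, the axial tumor of N42 was thus no farther from the appendicular tumors of the same mouse than these were from each other. Over the 500 most variable genes the difference between R pelvis and R femur, 2.98, was above those among the appendicular tumors of N42, 1.97 to 2.804, while R pelvis differed from L limb by 1.85 and from L shoulder by 1.68. The tumors of N43 differed by 0.96 from each other, by 0.93 and 0.95 from the N42 R pelvis tumor, and by 0.94 to 1.19 from the appendicular tumors of N42. All 6 values that involved N215 were larger, at 1.44 to 1.66. These are descriptions over tumors that share animals, and no test was made on them. The processed pseudogene *Gm13394*, whose counts may include reads of its parent gene, separated the animals and not the sites. It was at 30.8 CPM in N42 R pelvis and at 22.7 to 31.5 CPM in the other tumors of N42, and at 0 to 0.0613 CPM in those of N43 and N215. It was singled out after its values were seen.

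**Figure D1:**
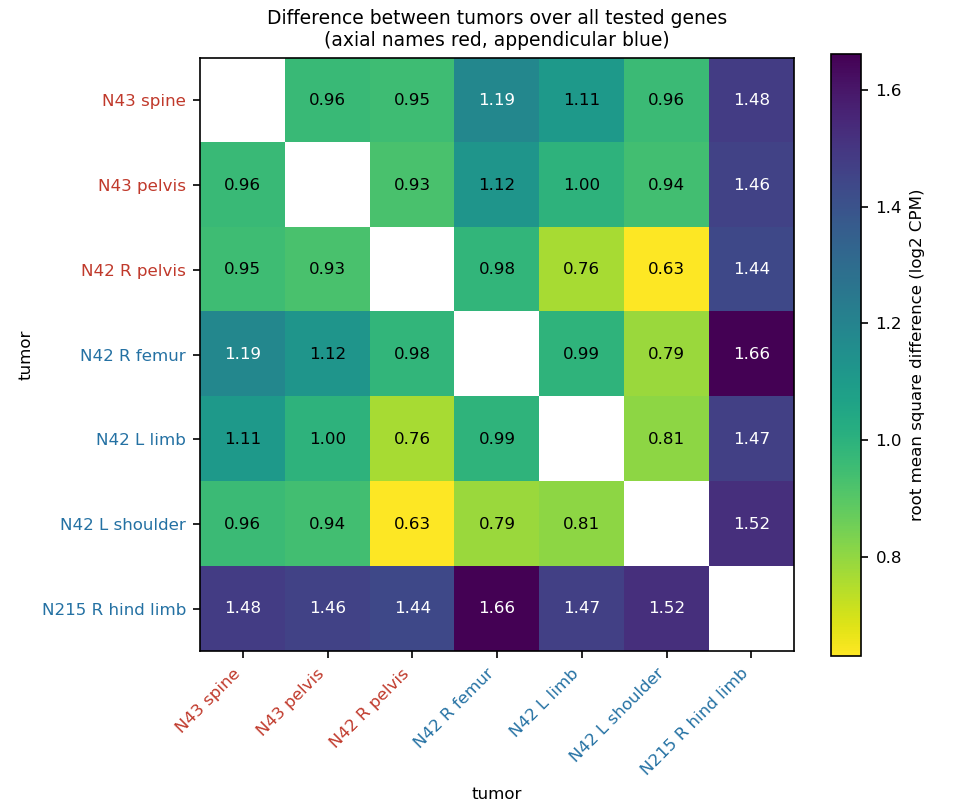
Root mean square difference in log2 CPM over the 17131 tested genes for each pair of the 7 tumors, with axial tumors named in red and appendicular tumors in blue. The smallest value, 0.63, lies between N42 R pelvis and N42 L shoulder, and all values with N215 are at or above 1.44.

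The comparison of axial with appendicular tumors asked whether the site of the primary tumor marks its expression profile. With edgeR, 0 of 17131 genes (0%) passed an adjusted p of 0.05, and the smallest adjusted p was 0.974. At an unadjusted p under 0.05 there were 641 genes, of which 490 (2.86% of the genes tested) were higher and 151 (0.881%) were lower in axial tumors. The 641 genes were 3.74% of those tested, which is below 0.05, the share expected when no gene differs. Without N215 edgeR again called 0 of 16710 genes, with a smallest adjusted p of 0.732. At an unadjusted p under 0.05, 897 genes were then higher and 161 lower, together 6.33% of those tested and above 0.05. Tumors of 1 mouse are not independent, so the share expected when no gene differs need not hold here. DESeq2, the tool of the study, called 31 genes on the same 7 tumors, 29 higher and 2 lower, and limma-voom with the animal as a random effect called 0. Among the 24421 genes with any count, the axial and appendicular values did not overlap for 717 genes (2.94%) that were higher and 420 genes (1.72%) that were lower in axial tumors. The 7 tumors can be split into 3 and 4 in only 35 ways, so some genes separate the groups without any relation to site. The genes described below did not pass the edgeR test, so their values are given as measured in each tumor.

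The 12 protein-coding genes with the smallest unadjusted p among those higher in axial tumors without overlap included several genes of striated muscle. *Igfn1* (chr1:135953578-136006342), which encodes an immunoglobulin-like and fibronectin domain protein of skeletal muscle, was at 88.1, 199.96 and 56.2 CPM in the axial and 3.07, 7.96, 1.14 and 7.39 CPM in the appendicular tumors. The lowest axial value, that of N42 R pelvis, was above every appendicular value, N215 included (log2 fold change 4.56 ± 0.73, unadjusted p = 0.000254, edgeR adjusted p = 0.974; 4.80 without N215). *Tnnc1* (chr14:31208312-31211729), the troponin C of slow and cardiac muscle, was at 4.39, 9.01 and 7.74 CPM against 1.64, 2.14, 1.43 and 2.15 CPM (log2 fold change 1.94 ± 0.38). *Sln* (chr9:53850164-53854560), sarcolipin, a regulator of the calcium pump of muscle, was at 18.6, 66.5 and 9.93 CPM against 1.30, 3.12, 1.93 and 0.269 CPM, and N215 had the lowest level (log2 fold change 4.21 ± 0.85). *Col19a1*, a collagen gene, was at 1.995, 8.34 and 4.14 CPM in axial and 0.205, 0.857, 0.214 and 0.403 CPM in appendicular tumors.

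Other genes of this set are known from fat, from marrow or from signaling. *Acacb*, an acetyl-CoA carboxylase that restrains fatty acid oxidation, was at 84.0, 114 and 49.9 CPM in axial and 19.3, 33.0, 28.2 and 35.6 CPM in appendicular tumors. *Ngp*, a granule protein of neutrophils, was at 12.6, 10.8 and 1.71 CPM against 0.682, 0.429, 0.429 and 0 CPM, with the N43 tumors well above N42 R pelvis. *Hp*, the hemoglobin-binding protein haptoglobin, was at 22.4, 21.5 and 7.74 CPM against 4.03, 1.84, 5.65 and 2.69 CPM, and here too the lowest axial value was that of N42 R pelvis. *Stim1*, the calcium sensor of the endoplasmic reticulum, showed a small but separate difference, at 134, 107 and 99.8 CPM against 55.3, 61.2, 68.9 and 53.6 CPM (log2 fold change 0.93 ± 0.20; 0.87 without N215). The E3 ubiquitin ligase gene *Lnx1* was at 10.8, 13.2 and 9.52 CPM against 4.03, 3.12, 2.64 and 2.42 CPM, the smallest p after *Igfn1*. *Plxdc2*, *Tmem117* and *Fibin* completed the 12, with log2 fold changes of 1.29, 2.497 and 2.01. These 12 genes were chosen for groups that did not overlap, so a higher level without N215 and within N42 was fixed by that choice. With the animal in the model, the 12 log2 fold changes came from N42 alone and ran from 0.65 to 3.78.

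**Figure D2:**
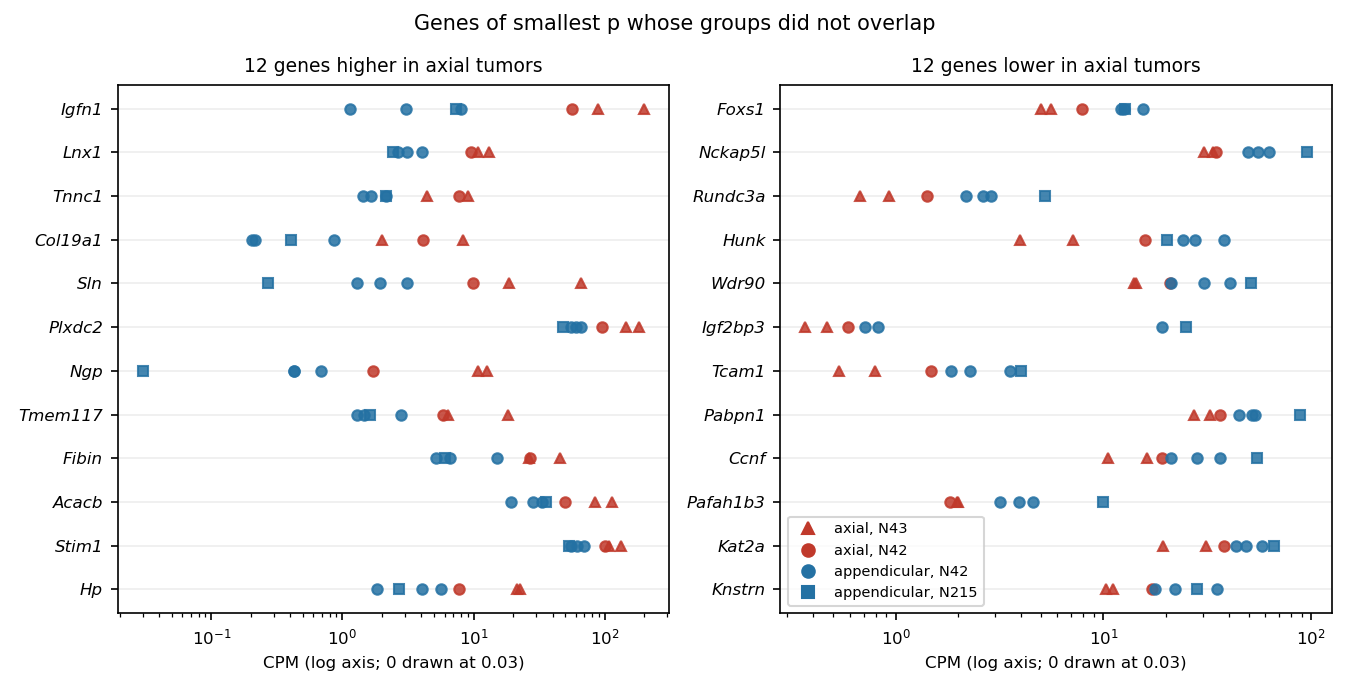
CPM on a log axis of the 12 protein-coding genes with the smallest p among those higher (left) and lower (right) in axial tumors without overlap, with 1 point per tumor. Axial tumors are red and appendicular tumors blue, and the symbol gives the animal (triangle N43, circle N42, square N215). None of the 24 genes passed an adjusted p of 0.05, and *Igfn1* shows the widest gap between the groups among the genes on the left.

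The skeletal muscle list held 18 genes of the contractile apparatus and its calcium handling, and all 18 had a higher mean in axial tumors, as did 49.5% of all genes with counts. The summed level of the list was 4796, 13333 and 3329 CPM in the axial and 97.1, 1902, 1185 and 8710 CPM in the appendicular tumors. Muscle transcripts were thus present in every tumor, the groups overlapped through N215, and the N42 R femur tumor had by far the lowest level. All 18 genes were tested, and their median log2 fold change was 1.25 against -0.01 over all tested genes. Without N215 it was 2.92, and 16 of the 18 genes then did not overlap between the groups, where 7.19% of all genes were higher and 3.73% lower without overlap. Within N42, the R pelvis tumor was above all 3 appendicular tumors for 16 of the 18 genes (22.9% of all genes) and below all 3 for 0 (20.4% of all genes).

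With N215 included, 2 of the 18 muscle genes did not overlap (2.94% of all genes were higher without overlap) and 4 had an unadjusted p under 0.05 (2.86% of the genes tested were higher at this level). *Tnnt1*, the slow skeletal troponin T, was at 10.2, 29.8 and 10.3 CPM against 1.23, 4.65, 0.429 and 3.09 CPM (log2 fold change 2.84 ± 0.78, unadjusted p = 0.00666). *Myh7*, the slow myosin heavy chain, was at 50.9, 63.0 and 19.3 CPM against 1.16, 11.5, 1.00 and 18.0 CPM (log2 fold change 2.501 ± 0.99). For these genes, and for *Tnnc1* and *Sln* above, N215 was below every axial tumor, by little in *Myh7*. The 3 genes of the list with the highest mean CPM had another pattern. *Myh4*, the myosin of the fastest fibers, was at 703, 3187 and 581 CPM in axial and 8.73, 335, 185 and 2311 CPM in appendicular tumors, so that N215 was second only to N43 pelvis. *Acta1*, skeletal actin, was at 761, 1645 and 381 CPM against 18.1, 273, 137 and 1270 CPM. *Atp2a1*, the calcium pump of fast fibers, was at 965, 2091 and 808 CPM against 12.2, 410.5, 317 and 1271 CPM. For these 3 genes N215 lay within the range of the axial tumors, and the N42 appendicular tumors lay below it. The myosin heavy chain genes are close copies of each other, and reads of 50 bases may be shared between them. The amount of muscle in each sample is not given, and its part in the differences between the groups was not tested.

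Transcription of muscle genes is driven by factors of the MyoD family, which bind the E-box motif CAGCTG among others. The stretch of 250 bases before the RefSeq start (GRCm38.p6) is shown for the muscle gene with the smallest p and for the 3 genes of the muscle list with the highest mean CPM, which were also the highest per kilobase of exon, to let their proximal promoters be read beside the levels above. Each is written 5′ to 3′ on the strand of the gene, with CAGCTG, the same on both strands, in capitals.
Igfn1 (chr1:136006343-136006592, - strand): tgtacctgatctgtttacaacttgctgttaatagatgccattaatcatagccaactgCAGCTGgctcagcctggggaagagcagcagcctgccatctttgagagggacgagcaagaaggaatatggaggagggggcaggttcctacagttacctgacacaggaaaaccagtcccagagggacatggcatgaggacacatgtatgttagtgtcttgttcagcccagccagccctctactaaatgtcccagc
Myh4 (chr11:67237562-67237811, + strand): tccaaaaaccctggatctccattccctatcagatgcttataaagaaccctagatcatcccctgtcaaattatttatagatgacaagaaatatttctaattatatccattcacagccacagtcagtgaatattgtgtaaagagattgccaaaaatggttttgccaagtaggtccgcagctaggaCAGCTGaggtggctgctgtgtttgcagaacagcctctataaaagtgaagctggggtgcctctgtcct
Acta1 (chr8:123894776-123895025, - strand): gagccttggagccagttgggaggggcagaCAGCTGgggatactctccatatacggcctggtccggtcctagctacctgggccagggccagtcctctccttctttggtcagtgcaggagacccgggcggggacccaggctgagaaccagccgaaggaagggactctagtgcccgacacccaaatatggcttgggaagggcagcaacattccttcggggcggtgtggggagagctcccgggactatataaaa
Atp2a1 (chr7:126463074-126463323, - strand): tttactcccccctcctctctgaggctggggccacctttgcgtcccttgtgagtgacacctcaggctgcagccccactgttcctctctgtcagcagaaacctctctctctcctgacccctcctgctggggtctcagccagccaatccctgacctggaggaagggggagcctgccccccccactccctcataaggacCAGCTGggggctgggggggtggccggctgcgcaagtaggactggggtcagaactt
The motif was found once in each of the 4. Of the 15 muscle list genes in the RefSeq table, 8 (53.3%) held it in this window before at least 1 start, against 14.7% of the 27025 genes in the table and 13% of its 32851 windows. A match is a description of the letters in this window only.

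**Figure D3:**
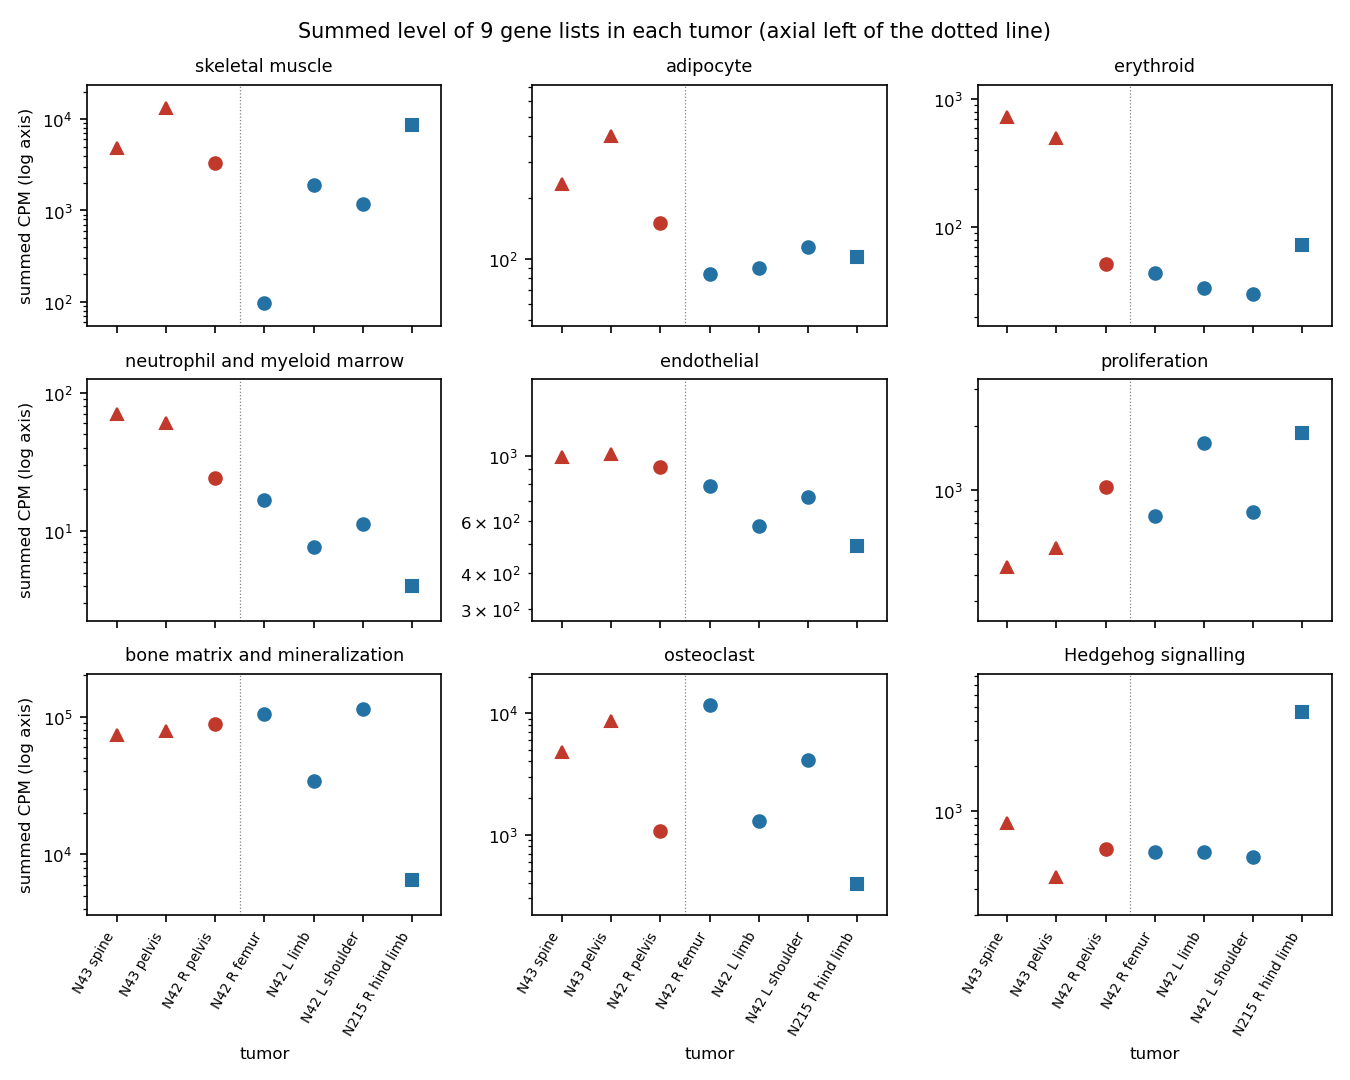
Summed CPM on a log axis of 9 gene lists in each of the 7 tumors, with axial tumors in red to the left of the dotted line and appendicular tumors in blue (triangle N43, circle N42, square N215). The adipocyte, neutrophil and endothelial sums do not overlap between the groups, the erythroid sum is high only in the 2 tumors of N43, and the Hedgehog sum is high only in N215.

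Fat cell transcripts were at low levels in all tumors and higher in the axial ones. The summed level of the 10 adipocyte genes was 234, 400.0 and 149 CPM in axial and 83.7, 90.3, 114 and 102 CPM in appendicular tumors, and the groups did not overlap. All 10 genes had a higher mean in axial tumors (49.5% of all genes) and 5 of the 10 did not overlap (2.94% of all genes), or 7 of the 10 without N215 (7.19%). *Cfd*, the fat-derived complement factor adipsin, was at 33.9, 26.6 and 21.5 CPM against 0.887, 3.80, 9.01 and 2.28 CPM (log2 fold change 2.76 ± 0.68, unadjusted p = 0.00361, edgeR adjusted p = 0.974). *Cidec*, a lipid droplet protein, was at 9.71, 12.2 and 4.31 CPM against 0.273, 0.551, 1.93 and 0.134 CPM. *Adipoq*, adiponectin, reached only 3.46, 4.11 and 2.13 CPM in axial tumors and 0.273, 0.612, 1.43 and 0.403 CPM in appendicular tumors, and *Lep*, leptin, was at or below 0.333 CPM in every tumor. Within N42 the R pelvis tumor was above all 3 appendicular tumors for 7 of the 10 genes (22.9% of all genes).

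Endothelial genes showed a small difference in the same direction. All 15 genes of the list were tested and had a higher mean in axial tumors, with a median log2 fold change of 0.56 (0.44 without N215 and 0.48 within N42 alone). Their summed level was 992, 1014 and 915 CPM against 786, 575, 726 and 493 CPM without overlap, and 4 of the 15 genes did not overlap (2.94% of all genes), or 6 without N215 (7.19%). *Pecam1*, the CD31 adhesion molecule, was at 109.7, 137 and 133 CPM against 91.8, 79.8, 101 and 53.6 CPM (log2 fold change 0.63 ± 0.26, unadjusted p = 0.0399). *Sox17*, a transcription factor of arterial endothelium, was at 12.1, 15.6 and 7.03 CPM against 6.28, 3.74, 4.36 and 5.10 CPM. *Cldn5*, a tight junction protein of vessels, was at 6.05, 11.2 and 16.6 CPM against 3.68, 5.39, 5.15 and 6.05 CPM, with the highest value in N42 R pelvis. *Vwf*, the von Willebrand factor, was at 67.1, 38.3 and 71.2 CPM against 23.4, 20.5, 31.8 and 44.1 CPM and overlapped through N215.

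Red cell transcripts were high in N43 alone. The 17 erythroid genes in the table summed to 725, 502 and 51.2 CPM in the axial tumors and 43.9, 33.7, 30.2 and 72.5 CPM in the appendicular tumors. Both N43 tumors were high, while N42 R pelvis lay among the appendicular tumors. *Alas2*, the heme synthesis enzyme of red cell precursors, was at 220.3, 114 and 3.90 CPM against 15.6, 3.61, 6.43 and 6.72 CPM. *Hbb-bs*, an adult beta globin that may share reads with its near copy *Hbb-bt*, was at 141, 144 and 4.73 CPM against 18.4, 3.25, 6.36 and 9.13 CPM. *Slc4a1*, the anion exchanger of the red cell membrane, was at 166, 76.2 and 0 CPM against 0.546, 0.245, 0.214 and 2.82 CPM, with no count in N42 R pelvis. All 17 genes had a higher mean in axial tumors, but only 2 of the 17 did not overlap (2.94% of all genes), or 4 without N215 (7.19%). Within N42 the R pelvis tumor was above all appendicular tumors for 4 genes and below all for 5, near the shares over all genes (22.9% and 20.4%). When only the N43 tumors were set against the appendicular tumors of N42, *Slc4a1* was 1 of 2 genes past an adjusted p of 0.05 with edgeR (adjusted p = 0.0441), and *Gm13394* was the other, so this comparison of 1 animal with another cannot tell animal from site.

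Neutrophil and myeloid marrow genes were also highest in N43, with N42 R pelvis in between. Their summed level was 69.8, 60.7 and 24.3 CPM in axial and 16.7, 7.59, 11.2 and 4.03 CPM in appendicular tumors without overlap, and 5 of the 15 genes did not overlap in the higher direction (2.94% of all genes) and 0 in the lower (1.72%). Without N215 the higher direction held 7 of the 15 (7.19% of all genes). *S100a8*, a calcium-binding protein abundant in neutrophils, was at 7.32, 5.09 and 2.13 CPM against 1.71, 0.674, 0.286 and 0.537 CPM (log2 fold change 2.57 ± 0.68, unadjusted p = 0.00534). *Ltf*, lactoferrin, was at 4.99, 4.54 and 0.650 CPM against 0.614, 0.0612, 0.214 and 0.134 CPM, so that N42 R pelvis and N42 R femur were nearly equal. *Lcn2*, lipocalin 2, was at 8.58, 10.1 and 11.1 CPM against 1.501, 3.18, 5.58 and 0 CPM, and it was highest in N42 R pelvis. Levels of most of these genes were a few CPM, where 3 counts are 0.177 to 0.384 CPM of the unscaled library totals, a limit that covers counting error only. The marrow and fat sums were both highest in the N43 tumors, and the part of sampled marrow or fat in the differences was not tested.

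The 12 genes lower in axial tumors without overlap were of mixed function. *Foxs1*, a forkhead factor known from perivascular cells, was at 4.99, 5.58 and 7.86 CPM in axial and 12.6, 15.6, 12.1 and 12.8 CPM in appendicular tumors (log2 fold change -1.11 ± 0.29, unadjusted p = 0.00492, edgeR adjusted p = 0.974). *Nckap5l*, which encodes a microtubule-associated protein, was at 30.5, 33.8 and 35.0 CPM against 62.9, 55.2, 49.6 and 95.4 CPM. *Igf2bp3*, an oncofetal RNA-binding protein, was at 0.466, 0.368 and 0.591 CPM against 0.819, 19.2, 0.715 and 24.99 CPM, so its fold change (log2 -4.56 ± 1.42) came from N42 L limb and N215, and the other 2 appendicular tumors were barely above the axial ones. *Hunk*, a serine/threonine kinase gene, was at 7.12, 3.99 and 15.8 CPM against 38.1, 24.2, 27.7 and 20.1 CPM. The remaining genes among the 12 were *Rundc3a*, *Wdr90*, *Tcam1*, *Pabpn1*, *Ccnf*, *Pafah1b3*, *Kat2a* and *Knstrn*, with log2 fold changes from -1.66 to -0.87. Of these *Ccnf*, cyclin F, and *Knstrn*, a kinetochore protein, belong to the cell division machinery.

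Cell division genes were on balance lower in axial tumors, but the groups overlapped. All 22 genes of the proliferation list had a lower mean in axial tumors (50.5% of all genes with counts did). Their median log2 fold change was -0.92, with 3 genes at an unadjusted p under 0.05, where 0.881% of the genes tested were lower. Of the 22 genes 0 were without overlap (2.94% of all genes were higher and 1.72% lower). N42 R pelvis was below all 3 appendicular tumors of its mouse for 1 gene (20.4% of all genes) and above all 3 for 1 (22.9%). Without N215 there were also 0 without overlap (7.19% of all genes were higher and 3.73% lower). The summed level was 436, 531 and 1032 CPM in axial and 758, 1657, 790.1 and 1849 CPM in appendicular tumors, lowest in the N43 tumors and highest in N42 L limb and N215. *Foxm1*, a transcription factor of the G2 phase, was at 10.5, 19.1 and 35.8 CPM against 32.1, 60.8, 35.7 and 90.4 CPM (log2 fold change -1.33 ± 0.52, unadjusted p = 0.0337). *Mki67*, the Ki-67 marker, was at 74.6, 146 and 236 CPM against 154, 361, 160.5 and 326 CPM. *Top2a*, topoisomerase II alpha, was at 30.2, 57.2 and 131 CPM against 107, 252, 84.99 and 419 CPM, and *Mcm6*, a subunit of the replicative helicase, at 59.8, 46.4 and 61.3 CPM against 47.8, 80.0, 43.3 and 134 CPM. *Foxm1*, *Mki67* and *Top2a* were lowest in N43 spine. The median of the list was -0.81 without N215 and -0.08 within N42 alone.

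Of the 34 *Hox* genes in the table, all of which had counts, 0 were without overlap (2.94% of all genes were higher, 1.72% lower). The edgeR test called 0 of them, with 0 at an unadjusted p under 0.05 (2.86% of the genes tested were higher, 0.881% lower). Without N215, 3 *HoxC* genes and 1 *HoxD* gene were higher in axial tumors without overlap (7.19% of all genes), and 1 *HoxA* gene and 2 *HoxB* genes were lower (3.73%). *Hoxc6* was then at 28.5, 14.9 and 14.1 CPM against 5.66, 9.25 and 8.36 CPM (edgeR log2 fold change 1.29, unadjusted p = 0.00933, adjusted p = 0.748). *Hoxb3* was at 16.4, 15.6 and 16.3 CPM against 24.1, 26.8 and 27.2 CPM, and *Hoxa9* and *Hoxb2* were lower in axial tumors likewise. These 4 genes had an unadjusted p under 0.05 without N215, as did 6.33% of the genes tested, and N215 went the other way in each, with *Hoxc6* at its highest and the other 3 at their lowest value. Other *Hox* genes differed in single tumors. N42 L shoulder had almost no 5′ *HoxC* transcripts, with *Hoxc9* at 0, *Hoxc10* at 0.143 and *Hoxc11* at 0 CPM, and *Hoxc10* was at 7.78 to 18.7 CPM in the other 6 tumors. *Hoxc10* is known from the lower trunk and hind limb, and the N42 R femur, N42 L limb, N215 R hind limb and both pelvic tumors had it at 11.02 CPM or more. N43 spine was below both pelvic tumors in *Hoxc11* and *Hoxa11*, with *Hoxc11* at 0.0665 CPM against 4.35 and 5.32 CPM and *Hoxa11* at 0.0665 CPM against 8.22 and 1.77 CPM. *Hoxb9*, a trunk *Hox* gene, was at 26.1 CPM in N43 spine, 9.31 CPM in N42 L limb and at or below 1.54 CPM elsewhere. *Hoxa13*, active at the tip of the limb and the tail end of the body, was at 2.13, 23.9 and 2.48 CPM in axial and 0.682, 8.82, 19.8 and 0.403 CPM in appendicular tumors. N215 was low for the whole *HoxA* cluster, which summed to 10.9 CPM there and to 84.3 to 138 CPM in the others, and *Hoxc6* was at 66.2 CPM there. *Hoxd13* had 1.46 CPM in N43 spine and no count in either pelvic tumor.

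The markers of fore and hind limb were at low levels. *Pitx1* was at 3.68, 3.86, 0.0715 and 1.07 CPM in the appendicular tumors, near 0 in the shoulder tumor, and at 0, 1.104 and 0 CPM in the axial tumors. *Tbx5* was highest in N42 L shoulder, at 1.07 CPM, and at or below 0.403 CPM in the others. *Tbx4* did not follow the hind limb, at 9.04, 1.17 and 2.96 CPM in axial and 0, 1.96, 4.93 and 0.537 CPM in appendicular tumors, with the highest level in N43 spine. Of the 24 limb transcription factor genes present, 0 were without overlap, with or without N215. The shares of all genes were 2.94% higher and 1.72% lower, or 7.19% and 3.73% without N215.

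Of the genes known from the vertebral column, the *Zic* genes were highest in the spine tumor. *Zic1*, a zinc finger factor of the dorsal somite and neural tube, was at 23.7, 0.491 and 1.60 CPM in axial tumors and 0, 0, 0 and 0.134 CPM in appendicular tumors. It was the only 1 of the 13 axial transcription factor genes in the table without overlap (2.94% of all genes were higher without overlap). It was below the count filter of edgeR. Without that filter edgeR called 0 of 24421 genes, with a smallest adjusted p of 0.919. DESeq2 gave *Zic1* an adjusted p of 0.00119, with 357 counts in N43 spine against 8 in N43 pelvis and 27 in N42 R pelvis. *Zic2* was at 12.4 CPM in N43 spine and at or below 1.102 CPM elsewhere. *Pax9* was at 6.72 CPM in N43 spine, but N215 and N42 L limb had 3.22 and 2.63 CPM, and *Pax1* did not exceed 0.732 CPM in any tumor. The glial and cartilage protein gene *S100b* was at 103 CPM in N43 spine and 1.501 to 12.6 CPM in the others, while the glial genes *Gfap* and *Sox10* stayed at or below 0.429 CPM in every tumor.

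**Figure D4:**
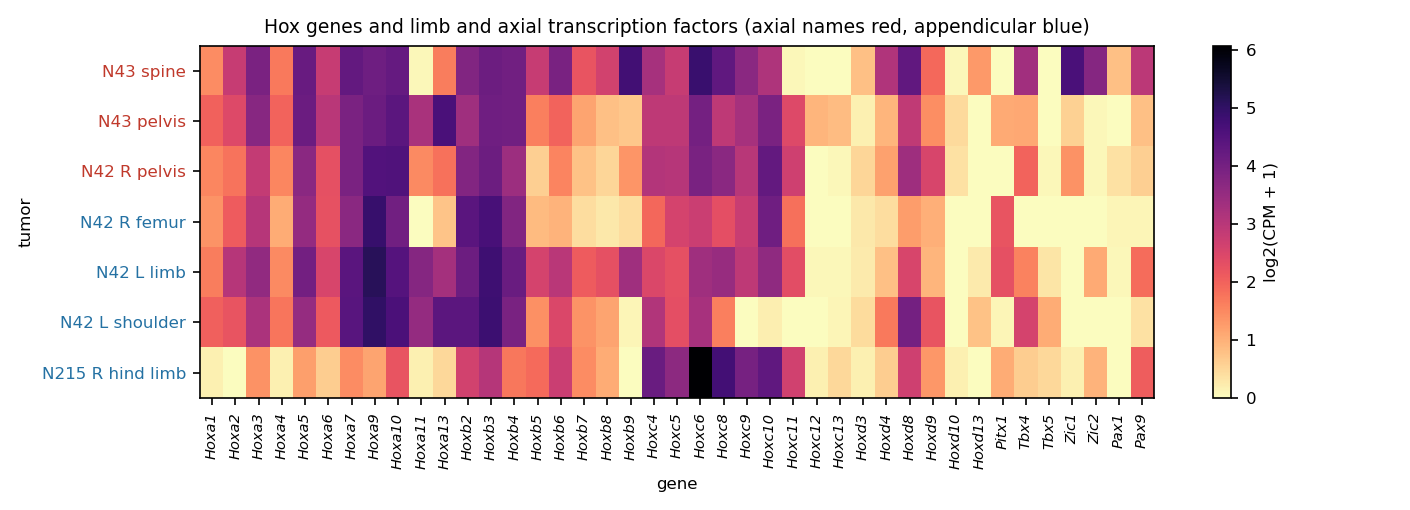
Log2(CPM + 1) of the 34 *Hox* genes and of 7 limb and axial transcription factor genes in each tumor, with axial tumors named in red and appendicular tumors in blue. *Zic1*, *Zic2* and *Hoxb9* are darkest in N43 spine, *Hoxc9* to *Hoxc11* are near 0 in N42 L shoulder, and N215 is pale across *HoxA*.

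Osteoblast genes did not separate the sites at this number of tumors. The osteoblast factors *Runx2*, at 179.8, 254 and 200.02 CPM in axial and 185, 233, 229.7 and 70.8 CPM in appendicular tumors, and *Sp7*, which encodes Osterix, at 106, 101 and 167 CPM and 101, 68.3, 144 and 174 CPM, were present in all 7 tumors. *Dlx3*, a homeobox gene of the osteoblast lineage, was the only 1 of the 10 osteoblast factor genes without overlap (1.72% of all genes were lower without overlap). It was at 23.2, 19.7 and 19.2 CPM against 25.8, 30.1, 27.9 and 54.7 CPM (edgeR log2 fold change -0.74 ± 0.31, unadjusted p = 0.0469). The 14 bone matrix genes had a median log2 fold change of 0.14, which was -0.19 without N215. Of the 14 genes, 0 were without overlap (2.94% of all genes were higher and 1.72% lower). Without N215, 1 was lower without overlap, where 3.73% of all genes were lower. *Spp1*, osteopontin, was at 1893, 4085 and 3429 CPM against 3160, 4023, 3916 and 16.9 CPM. *Ibsp*, bone sialoprotein, was at 297, 2145 and 3057 CPM against 2568, 1671, 2905 and 3.90 CPM, low in N43 spine and nearly absent from N215. The osteocyte gene *Dmp1* was at 61.3, 219.9 and 335 CPM against 215.2, 632, 332 and 0.269 CPM and was lowest in the same 2 tumors.

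Osteoclast genes varied widely within each group. The 13 genes summed to 4819, 8646 and 1075 CPM in axial and 11745, 1293, 4125 and 390.4 CPM in appendicular tumors. Their median log2 fold change was 0.06 with the 7 tumors and -0.18 without N215. In either case 0 genes were without overlap (2.94% of all genes were higher and 1.72% lower, or 7.19% and 3.73% without N215). Within N42 the R femur tumor had the highest and the R pelvis tumor the lowest sum, and the median over N42 alone was -2.997. *Acp5*, the tartrate-resistant acid phosphatase, was at 425, 2381 and 132 CPM against 2179, 219, 771 and 10.6 CPM. *Ctsk*, cathepsin K, was at 766, 1705 and 358 CPM against 2509, 295, 1161 and 55.9 CPM, and *Mmp9*, a matrix metalloproteinase, at 3163, 3265 and 229 CPM against 5493, 384, 1555 and 6.05 CPM. All 3 genes were lowest in N215. Summed macrophage levels overlapped between the groups, with a median log2 fold change of 0.00 over 15 genes (-0.34 without N215). Of the 15 genes, 0 were without overlap (2.94% of all genes were higher and 1.72% lower). Without N215, 1 was lower without overlap (3.73% of all genes).

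Cartilage genes were scattered over single tumors. *Col2a1*, the collagen of hyaline cartilage, was at 2.33, 598 and 5.26 CPM in axial and 7.85, 20.6, 15.4 and 134 CPM in appendicular tumors, highest in N43 pelvis. *Sox9*, the main cartilage transcription factor, was at 174 CPM in N215 and at 1.96 to 14.9 CPM in the other tumors. Of the 18 genes present, 2 were without overlap, both higher in axial tumors (2.94% of all genes). Without N215 there were 5, all higher (7.19%). *Chad*, chondroadherin, was at 11.8, 22.3 and 4.85 CPM against 0.136, 0.735, 3.07 and 0.806 CPM (log2 fold change 3.43 ± 0.92, unadjusted p = 0.00573), and *Prg4*, the joint lubricant lubricin, at 91.8, 136 and 137 CPM against 4.44, 36.7, 85.8 and 5.24 CPM (log2 fold change 1.87 ± 0.94, unadjusted p = 0.0812). In *Prg4* the lowest values were those of N42 R femur and N215, and N42 L shoulder lay close below N43 spine.

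Among the matrix and tendon genes, *Thbs4*, a thrombospondin of tendon and muscle attachments, was at 299.9, 465 and 529 CPM in axial and 162, 171, 276 and 117 CPM in appendicular tumors without overlap (log2 fold change 1.25 ± 0.35, unadjusted p = 0.00764; 1.09 without N215). It was the only 1 of 8 tendon genes in the table without overlap (2.94% of all genes were higher without overlap). The small proteoglycan biglycan (*Bgn*) was at 4739, 2315 and 1971 CPM against 1290, 1220, 1848 and 607 CPM, with N42 L shoulder just below N42 R pelvis (log2 fold change 1.28 ± 0.50). *Bgn* was likewise the only 1 of 10 genes of its family in the table without overlap (2.94% of all genes). The related *Lum* and *Fmod* overlapped, *Fmod* at 1289, 387 and 1205 CPM against 635, 618, 766 and 41.6 CPM.

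In the BMP and TGF-β pathway, whose ligands drive bone formation and matrix deposition, 17 of 21 genes had a higher fitted level in axial tumors. Of all genes with counts, 49.5% had a higher mean there. In this list, 5 genes had an unadjusted p under 0.05, all of them higher (2.86% of the genes tested). The ligand genes *Tgfb2*, at 214, 87.9 and 184 CPM against 81.3, 92.0, 93.1 and 28.3 CPM, and *Tgfb3*, at 200.4, 84.7 and 113 CPM against 41.0, 86.9, 86.7 and 64.2 CPM, had log2 fold changes of 1.13 ± 0.46 and 0.93 ± 0.38. The secreted antagonist follistatin (*Fst*) was at 31.7, 39.5 and 61.6 CPM against 20.9, 21.7, 24.2 and 19.6 CPM. Its edgeR log2 fold change was 1.03 ± 0.27 (unadjusted p = 0.00469), and 0.99 without N215. *Fst* was the only 1 of the 21 genes without overlap (2.94% of all genes were higher without overlap). The BMP antagonist *Grem1* was at 7.58, 0.858 and 3.72 CPM against 0.136, 0.429, 1.22 and 1.07 CPM. The median of the list was 0.50, and 0.70 without N215. In the FGF and retinoic acid list, 14 of 23 genes had a higher fitted level in axial tumors, and 0 had an unadjusted p under 0.05. Of all genes with counts, 49.5% had a higher mean in axial tumors. The retinoic acid-producing *Aldh1a1* alone was without overlap (2.94% of all genes were higher without overlap). It was at 19.95, 36.1 and 37.7 CPM against 1.09, 19.7, 17.1 and 11.96 CPM. Of the 12 Wnt antagonists 0 were without overlap (2.94% of all genes were higher and 1.72% lower). *Wif1* was at 979, 99.3 and 777 CPM against 335, 228, 390.3 and 149 CPM.

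Hedgehog genes were high in N215 alone. *Gli2*, a transcription factor of the pathway, was at 2524 CPM in N215 and at 24.2 to 63.2 CPM in the other 6 tumors. The receptor gene *Ptch1*, itself a target of the pathway, was at 1029 CPM in N215 and 46.9 to 69.9 CPM elsewhere, and the target *Gli1* was at 235 CPM against 2.05 to 15.3 CPM. The fitted log2 fold change of *Gli2* was -3.89 ± 1.803 with N215 and 0.22 without it, and that of *Ptch1* -2.40 ± 1.21 with and 0.02 without. Among the other 6 tumors the levels of all 3 genes overlapped between the sites. *Shh*, a ligand of the pathway, had at most 0.0613 CPM in any tumor.

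**Figure D5:**
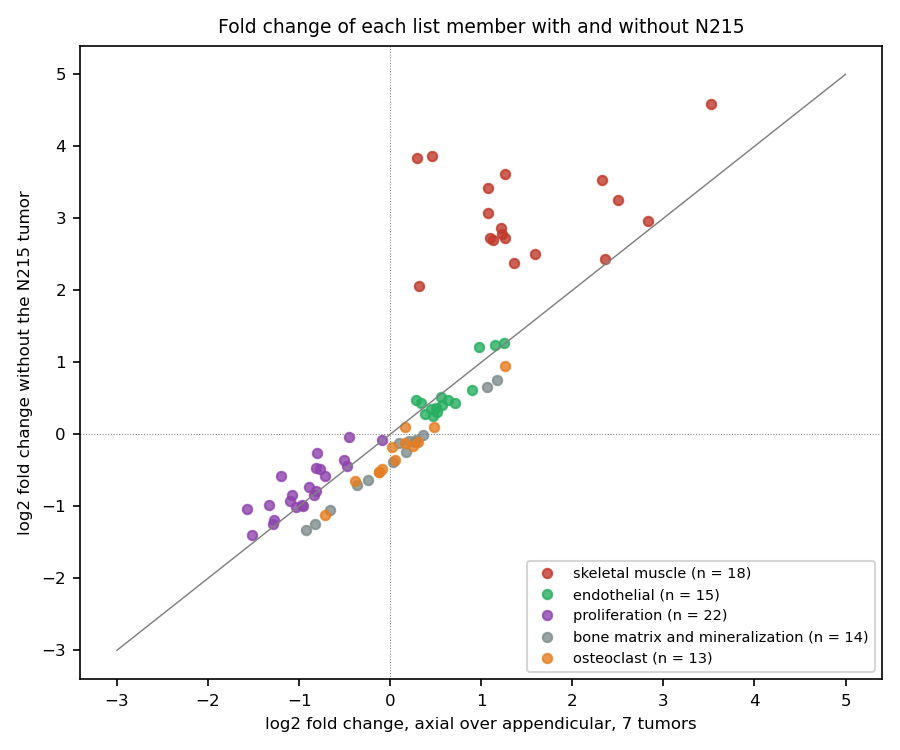
Log2 fold change of axial over appendicular tumors for each member of 5 gene lists, from all 7 tumors (x axis) and from the 6 tumors without N215 (y axis), with the line of equal values. Muscle genes lie above the line (median 1.25 and 2.92), endothelial and proliferation genes near it, and bone matrix and osteoclast genes lie below it.

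The count of 0 genes past the edgeR test was the same without N215, within N42 alone, with the animal as a term, with the counts of each animal summed by site, and with the spine tumor alone against the appendicular tumors. These comparisons all rest on few tumors, and a count of 0 does not show that the sites have the same profile. Of the 12 named higher genes, all but *Acacb* (DESeq2 adjusted p = 0.0638) were among the 29 higher genes by DESeq2. These 12 were picked for small p on the same counts, so their calls by DESeq2 are no separate support. *Zic1*, *Cidec* and *Cfd* were among these 29 as well, and most members of the muscle, fat and marrow lists were not. The 2 genes lower in axial tumors by DESeq2 were *Igf2bp3* and the small nuclear RNA gene *Rnu1b2*, 1 of several near-identical copies, which had counts only in N215 (6498 CPM) and N42 L limb (547 CPM).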

How the data were processed

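RNA was measured in 7 bone-site tumors, grouped by the animal and site in their titles. The authors extracted total RNA, depleted ribosomal RNA, sequenced single-end libraries (50 cycles) and aligned reads with Novoalign 2.08.01 to mm10 with Ensembl splice junctions. The deposited values are raw counts per gene, made by the authors with USeq. Reads with up to 50 alignments were kept, which can move counts between near-identical genes, and whether counting used strand is not given in the sources used here. The table held 25054 genes with a smallest total of 6 counts over its samples, 24997 of which (99.8%) matched GENCODE vM21 (GRCm38). The 17 symbols used for more than 1 gene were kept apart by identifier.

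Genes were filtered with filterByExpr (minimum count 10, minimum total 15) by group and scaled by TMM. They were tested two-sided with the edgeR 4.0.16 quasi-likelihood test in R 4.3.3. The test set 3 axial against 4 appendicular tumors without a covariate, with a Benjamini-Hochberg threshold of 0.05 over all genes tested. A prior count of 2 was used for the log2 CPM behind the differences between tumors, and not for the fold changes. CPM are counts over the TMM-scaled library total. Alternatives used DESeq2 1.42.0, limma 3.58.1 with statmod 1.5.0, other filters and scaling, the animal as a block, and fits without single tumors or animals. The authors used DESeq2 1.26.0. Single values were compared by exact permutation tests over all splits of the tumors. The expected numbers of detected genes were computed with scipy 1.17.1, and figures were drawn with matplotlib 3.10.9. The scripts were tested on simulated data. The biological coefficient of variation was 51%. No 2 of the 7 libraries were identical, and the labels give no batch and no replicate numbers that pair tumors.

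Named genes were, in each direction, the 12 protein-coding genes of smallest p whose groups did not overlap, the 3 members of each list with the highest mean CPM, and members of the *Hox*, limb and axial lists. Other list members were named because their groups did not overlap or because single tumors stood apart, after their values were seen. The tumors, gene lists and tests were chosen with earlier results of these data known. Promoter sequences and motif shares are from RefSeq (GRCm38.p6). Some genes of the lists are not reported here.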

Additional observations from a re-analysis of the deposited data

Results flagged for a closer look

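In 4 measures, 1 tumor stood far from the other 3 appendicular tumors by Dixon's ratio, all of them in the N215 R hind limb tumor, out of 58 measures tested. Chance gives such a result in about 1 in 20 groups of independent values, so some flags among 58 measures would arise by chance. The other 3 tumors share the animal N42, so this rate need not hold here, and animal and tumor cannot be told apart. The total count of N215 was 7806160, against 14145635 to 14913797 in the N42 tumors. The summed macrophage level was 931 CPM in N215 against 3134 to 3627 CPM. The summed level of the pericyte and smooth muscle genes was 1089 CPM against 733 to 770.5 CPM. The summed level of the Hedgehog genes was 4627 CPM against 493 to 528 CPM, mostly from *Gli2* and *Ptch1*.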

How the results depend on the processing

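Of 20 alternatives to the count of 0 genes past the threshold, 18 also gave 0, and leaving out each tumor in turn gave 0 to 0. DESeq2 gave 31 genes, with no adjusted p for 5201 of 23890 genes, and the 2 N43 tumors against the N42 appendicular tumors gave 2. With the animal as a replicate block, edgeR gave 0 genes past the threshold and 375 at an unadjusted p under 0.05, against 641 without the block. Without N215 and with the block, an alternative chosen after seeing the data, these were 0 and 357. For the 24 named genes, 0 of 479 values under alternatives changed sign and 12 were past the threshold. The 24 genes were chosen because their groups did not overlap, so fits on fewer of these tumors were bound to keep the sign. This 0 therefore does not test them. The median of the muscle list kept its sign under all 20 alternatives (0.16 to 3.18), as did those of the endothelial (0.40 to 0.70) and proliferation lists (-1.79 to -0.08). The proliferation median was -0.92 in the main fit but only -0.08 with the animal as a block. The medians of the bone matrix (-0.29 to 0.74), macrophage (-0.50 to 0.42) and osteoclast lists (-2.999 to 1.54) changed sign, and the cause was not tested. With 3 animals, site and animal cannot be told apart outside N42, where the axial group is a single tumor.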

Other observations

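The summed levels of the T and NK cell, interferon and pericyte lists overlapped between the sites. The 11 T and NK cell genes summed to 12.6, 15.3 and 14.5 CPM in axial and 24.97, 5.76, 13.1 and 11.7 CPM in appendicular tumors, in the order used above, and *Cd3e*, a chain of the T cell receptor complex, was at 2.26, 1.04 and 0.887 CPM against 0.819, 0.735, 0.643 and 1.07 CPM. Of the 12 interferon response genes 11 had a lower mean in axial tumors (50.5% of all genes). Of these 12, 0 were without overlap (2.94% of all genes were higher and 1.72% lower). An unadjusted p under 0.05 was found for 0 of them (2.86% of the genes tested were higher and 0.881% lower). *Ifit1*, an interferon-induced inhibitor of viral RNA, was at 9.11, 14.3 and 15.6 CPM against 5.59, 13.5, 33.8 and 48.4 CPM, highest in N42 L shoulder and N215. *Des*, desmin, a filament of muscle and of some pericytes, was at 216, 606 and 435 CPM against 22.5, 166, 118 and 228 CPM, with overlap only through N215, and the lowest value was in N42 R femur. The 10 pericyte and smooth muscle genes summed to 1014 to 1608 CPM in axial tumors and to 733 to 770.5 CPM in the N42 appendicular tumors, with 1089 CPM in N215. Of these 10 genes 0 were without overlap (2.94% of all genes were higher and 1.72% lower). When N215 was left out, 4 were higher without overlap, as were 4 of the 11 T and NK cell genes (7.19% of all genes).

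Beyond the Hedgehog genes, several developmental genes were highest in N215. *Lmx1b*, a factor of the dorsal limb, was at 38.4 CPM there and at or below 1.18 CPM in the other 6 tumors. The cartilage collagen gene *Col9a2* was at 89.1 CPM against at most 1.40 CPM, and the bone morphogenetic protein gene *Bmp7* at 221 CPM against at most 68.0 CPM. *Aldh1a3*, an enzyme of retinoic acid synthesis, was at 74.2 CPM against at most 8.81 CPM. These genes were singled out after their values were seen.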
